A study of Mus musculus with 8 samples.

Results

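The 37 genes described here form a list of mouse genes for the assembly and division of peroxisomes and for peroxisomal enzymes outside fatty acid oxidation, out of 34547 named genes measured. Members were taken by gene name, with earlier results of these data known. RNA was sequenced from the livers of 4 C57BL/6J mice given an AAV (adeno-associated virus, used to carry genes into liver) with mouse Nudt7, and of 4 C57BL/6J mice given the AAV with GFP, a fluorescent protein that serves as control. All 8 mice carried a virus, given through the tail vein at 8 weeks of age as 2.5e+11 particles in 150 µl of saline. The tissue was collected 3 to 4 weeks after that, when the mice were 11 to 12 weeks old and had gone 24 h without food, so no comparison with a fed or an uninjected liver is made. Nudt7 encodes a peroxisomal hydrolase of coenzyme A and acyl-CoAs, and the comparison asks how its overexpression altered the RNA of the fasted liver. The promoter and serotype of the virus, the sex of the mice and the cells that took up the virus are not stated in the labels. Of the 37 members, 35 had enough reads for the test, and Hao2 and Dao did not.

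Peroxisomes are organelles bounded by a single membrane, in which oxidases produce hydrogen peroxide and catalase removes it. They hold no DNA, so every peroxisomal protein is made in the cytosol and imported. Most matrix enzymes carry a short signal at their carboxyl end that the receptor Pex5 recognises, a smaller number carry a signal near the amino end that Pex7 recognises, and other peroxins dock, recycle or insert the cargo. In hepatocytes peroxisomes are abundant, and besides fatty acid oxidation they degrade urate, glyoxylate and polyamines and start the synthesis of ether lipids.

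The signal read by Pex5 is written in the last codons of a gene, so those codons were taken from the GENCODE M21 transcripts of GRCm38. For each gene the transcript with a complete coding end and the most estimated reads, summed over the 8 livers, was used. Its common form is a small residue (serine, alanine or cysteine), a basic residue (lysine, arginine or histidine) and then leucine or methionine. The last 30 coding bases of 8 members are shown 5′ to 3′, with the last 3 sense codons in capitals and the stop codon after them; the first 6 have the common form and the last 2 do not.
Lonp2: agacctggtctcattgacAGCAAACTAtag
Idh1: aaggccaaattagctcagGCCAAACTTtaa
Uox: gtcaagaggaagctgcctTCCAGGCTGtga
Pipox: ttctctacgctgagcaaaGCCCACCTTtga
Gnpat: ataggaaaaccagccactGCAAAACTAtaa
Tysnd1: ctgtccgaagtcccacggAGCAAGCTCtga
Cat: atggctgcgaagggaaaaGCTAACCTGtaa
Ephx2: cagaacccatcagtgaccTCCAAGATTtag
The common form stood at the end of 7 of the 36 members with a complete coding end (19.4%), these 6 and Hao2, against 68 of 13065 tested genes (0.521%). None of the 8 import, 3 membrane assembly, 5 division and 5 other membrane genes had it. The enzymes Cat, Ephx2, Agxt, Hao1, Prdx5 and Paox also end in codons outside the pattern, so members without it include matrix enzymes. Of the 6 tested members with it, 5 had a positive fold change, Nudt7 over GFP, with a median of 0.31 on the log2 scale; of the 29 without it, 21 did, with a median of 0.14. Leaving out Nudt7 replicate 3, a library that stood apart, gave medians of 0.15 for the 6 and 0.04 for the 29. The coding end of Dao was not assessed.

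Gene values are sums over the transcripts of a gene. Fold changes and tests use counts, shown as CPM (estimated reads scaled to library size), and levels of different genes are compared in TPM, which is per length. The libraries held 11187806 to 15487092 estimated reads in Nudt7 livers and 11466892 to 23640734 in GFP livers. Nudt7 itself was at 1301, 1599, 3569 and 1555 CPM in the Nudt7 livers and at 60.7, 75.9, 79.9 and 72.9 CPM in the GFP livers, so all 8 livers matched their labels. The library of Nudt7 replicate 3 stood apart. Its score on the first principal component (36.3% of the variance) was 63.1, with the other 7 libraries between −19.9 and 2.83, and genes with short transcripts lay a median of 0.42 (log2) above the mean of the other Nudt7 libraries while those with long transcripts lay at −0.35. The tissue had the markers of liver: the summed level of 6 hepatocyte genes was 46647 to 58577 TPM in Nudt7 livers, against 61213 to 69223 TPM in GFP livers, ranges that do not overlap. In CPM the same sum was 58742 to 89229 in Nudt7 livers, against 71680 to 92016 in GFP livers, and these ranges overlap. The kidney genes Aqp2 and Slc22a6 were at 0 in all libraries. The sum of 5 red blood cell genes was 4283 TPM in Nudt7 replicate 3, 934 to 2127 TPM in the other Nudt7 livers and 1354 to 2004 TPM in GFP livers. Sums overlapped between the groups for 6 pericentral hepatocyte genes (4861 to 6550 TPM in Nudt7 livers, against 4858 to 5609 TPM in GFP livers), 6 periportal genes (1389 to 1647 and 1573 to 1815 TPM), 5 Kupffer cell genes (58.2 to 110.1 and 59.6 to 108.8 TPM) and 4 endothelial genes (90.9 to 117 and 104 to 125 TPM). They also overlapped for 4 stellate cell genes (121 to 146 TPM in Nudt7 livers, against 130 to 157 TPM in GFP livers), and were at most 10.1 TPM in either group for the cholangiocyte, leukocyte and adipocyte lists. By single gene, all 6 pericentral genes had positive fold changes, Nudt7 over GFP (median 0.35 on the log2 scale), and 2 of them had an unadjusted p under 0.05. Of these Oat, an ornithine aminotransferase gene, had groups that did not overlap, at 829 ± 24.6 CPM over the Nudt7 group, against 612 ± 84.2 CPM over the GFP group (mean ± SD, n = 4 each; DESeq2 adjusted p = 0.0464, edgeR adjusted p = 0.386). The part of these cell types in the results was not tested.

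**Figure D1:**
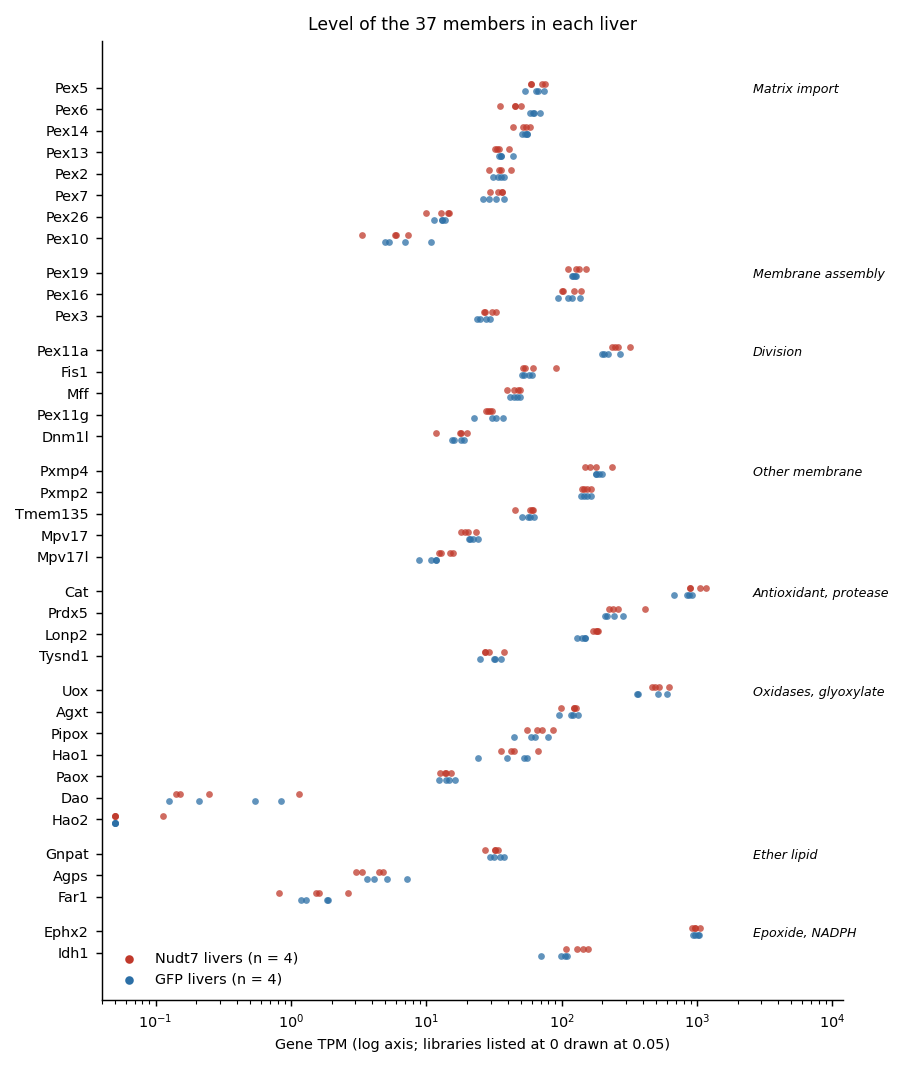
Level of each of the 37 members in each liver, in TPM on a log axis, grouped by role, with Nudt7 livers (n = 4) above GFP livers (n = 4); libraries listed at 0 are drawn at 0.05. The members span from Hao2, at 0 in 7 livers, to Ephx2 and Cat, which average 985 and 914 TPM.

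The members covered a wide range of levels. Ephx2, which encodes soluble epoxide hydrolase, was the most abundant with a mean of 985 TPM over the 8 livers, followed by Cat (914 TPM), the gene of catalase, and Uox (494 TPM), the gene of urate oxidase. Among the peroxin genes Pex11a led with a mean of 245 TPM, while Pex10 was at 6.34 TPM. Enzymes of ether lipid synthesis were scarce, with Gnpat at 32.5, Agps at 4.47 and Far1 at 1.6 TPM. Hao2, an oxidase of hydroxy acids, was listed at 0 in 7 livers and had 2 reads in Nudt7 replicate 3; a count of 0 allows up to 3 reads, which is 0.127 to 0.268 CPM in these libraries. Dao, the gene of D-amino acid oxidase, had at most 6.96 reads in a liver.

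Added up, the 37 members held more of the transcript pool in every Nudt7 liver than in any GFP liver. Their summed level was 4793, 4808, 4871 and 4853 TPM in Nudt7 livers (mean 4831 ± 36.9, SD, n = 4) and 4618, 4364, 4444 and 4322 TPM in GFP livers (mean 4437 ± 130, SD, n = 4). Cat made up 42.9% of the difference of 394 TPM, Uox 16.1%, Prdx5 11.4%, Pex11a 10.7%, Idh1 9.90% and Lonp2 9.73%. The share of Prdx5 came from Nudt7 replicate 3: without that library the difference was 381 TPM, of which Cat made up 53.7%, Uox 8.58% and Prdx5 under 1%. Without Cat the sums were 3694 to 3979 TPM in Nudt7 livers, against 3513 to 3745 TPM in GFP livers, and these ranges overlap. In bulk tissue, fewer cells of a type and less RNA per cell cannot be told apart, and the hepatocyte marker sum was lower in the same Nudt7 livers in TPM, though not without overlap in CPM. By single gene that marker list was mixed. Of its 6 genes 4 had negative and 2 positive log2 fold changes, Nudt7 over GFP, from −0.85 to 0.34 with a median of −0.14. The part of hepatocyte content in these levels was not tested.

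By single gene, 0 of the 35 tested members passed an adjusted p of 0.05 in edgeR's quasi-likelihood test over 13678 genes (Benjamini-Hochberg adjustment), where 0.117% of all genes did, 0.0439% higher and 0.0731% lower. Lonp2 passed in DESeq2 (adjusted p = 0.00824), the only member that did, where 1.12% of all genes passed (0.636% higher and 0.483% lower), and limma-voom called 0 with or without sample weights. At an unadjusted p under 0.05 in edgeR there were 5 members (14.3%), 4 higher (Lonp2, Idh1, Mpv17l and Cat) and 1 lower (Pex6) in Nudt7 livers, against 8.28% of all genes (4.25% higher, 4.03% lower). The same 5 were those whose CPM ranges in the 2 groups did not overlap, which held for 5.75% of all genes (2.74% higher, 3% lower). Fold changes were positive for 26 of 35 members (74.3%), against 49.8% of all genes, with a median of 0.18 on the log2 scale, against −0.00089 for all genes. Without Nudt7 replicate 3 they were positive for 22 of 35 (62.9%), against 50.9% of all genes, with a median of 0.04.

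**Figure D2:**
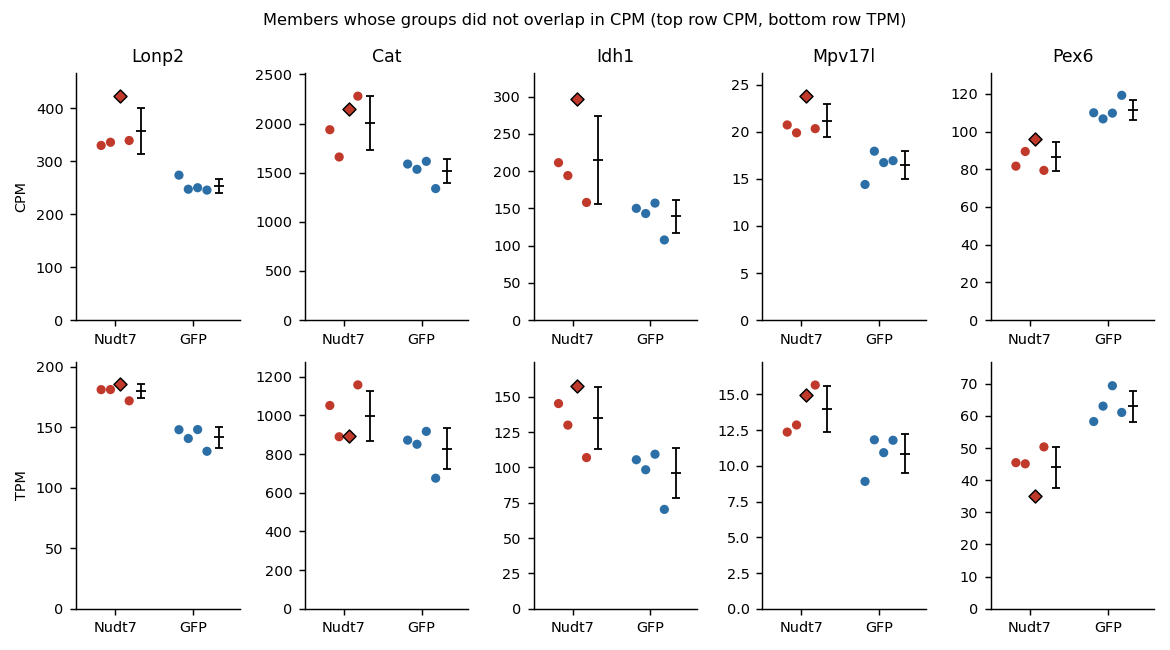
The 5 members whose groups did not overlap in CPM, shown per liver as CPM (top) and TPM (bottom), Nudt7 left of GFP; bars are mean ± SD (n = 4) and the diamond marks Nudt7 replicate 3. In TPM the groups stay apart for Lonp2, Mpv17l and Pex6 and overlap for Cat and Idh1.

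Among the antioxidant and protease genes, all 4 had positive fold changes and their median was 0.41 on the log2 scale; without Nudt7 replicate 3, 3 were positive and the median was 0.20. Lonp2, on chromosome 8 (86624043 to 86723873, plus strand, GRCm38), encodes the peroxisomal Lon protease, which degrades oxidised and misfolded matrix proteins. It was at 329.7, 336, 422 and 339 CPM in Nudt7 livers and at 274, 247, 249.9 and 245 CPM in GFP livers. Every Nudt7 liver was above every GFP liver, by 1.40-fold in the fit (log2 fold change 0.49, SE 0.13, adjusted p = 0.239 in edgeR). On the TPM scale it was at 180.1 ± 5.94 over the Nudt7 group, against 142 ± 8.48 over the GFP group (mean ± SD, n = 4 each), again with no overlap. Of the 35 tested members only Lonp2 and Mpv17l were higher and Pex6 lower in TPM with no overlap, against 5.42% of all genes (1.05% higher, 4.36% lower).

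Cat (chromosome 2, 103453849 to 103485160, minus strand), which encodes the enzyme that splits hydrogen peroxide, was at 1937, 1659, 2153 and 2279 CPM in Nudt7 livers and at 1588, 1534, 1615 and 1338 CPM in GFP livers. The lowest Nudt7 liver and the highest GFP liver lay close together, and the log2 fold change was 0.40 (SE 0.15; edgeR adjusted p = 0.485). In TPM the groups overlapped, at 998 ± 131 over the Nudt7 group, against 829 ± 106 over the GFP group (mean ± SD, n = 4 each). Prdx5, a peroxiredoxin gene, was at 131, 117, 299.9 and 113 CPM in Nudt7 livers and at 114, 146, 120.3 and 116 CPM in GFP livers. Only Nudt7 replicate 3 was high for Prdx5, and the log2 fold change of 0.41 (SE 0.28) became −0.03 without it. Tysnd1, the protease that trims imported proteins, had a log2 fold change of 0.14 (SE 0.15).

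Idh1 and Ephx2 supply NADPH and open epoxides. Idh1 (chromosome 1, 65158616 to 65186500, minus strand) encodes the isocitrate dehydrogenase shared by cytosol and peroxisome. It was at 211, 194, 297 and 158 CPM in Nudt7 livers and at 150.0, 143, 157 and 108 CPM in GFP livers. The lowest Nudt7 liver was less than 1 CPM above the highest GFP liver, and Nudt7 replicate 3 was the highest of all. Its log2 fold change of 0.63 (SE 0.19; edgeR adjusted p = 0.387) was the highest among the members in this fit, and it was 0.44 without Nudt7 replicate 3. Ephx2 was at 1389, 1540, 1852 and 1436 CPM in Nudt7 livers and at 1453, 1316, 1328 and 1527 CPM in GFP livers. The groups overlapped, with a log2 fold change of 0.14 (SE 0.14; edgeR adjusted p = 0.782).

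Of the 8 tested genes of matrix import, 5 had positive fold changes (median 0.12 on the log2 scale, and 0.04 without Nudt7 replicate 3) and Pex6 stood on the other side. Pex6 (chromosome 17, 46711463 to 46725541, plus strand) encodes an ATPase that helps to pull the receptor Pex5 back out of the membrane. It was at 81.7, 89.5, 96.3 and 79.4 CPM in Nudt7 livers and at 110.0, 107, 109.8 and 119 CPM in GFP livers. Every Nudt7 liver was below every GFP liver, with a log2 fold change of −0.36 (SE 0.11; edgeR adjusted p = 0.397). In TPM it averaged 44.0 ± 6.41 over the Nudt7 group, against 63.0 ± 4.73 over the GFP group (mean ± SD, n = 4 each), a log2 difference of −0.52 on the log2(TPM + 1) scale.

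Its membrane anchor Pex26 had a log2 fold change of 0.14 (SE 0.12). The cargo receptor Pex5, the most abundant import gene, was at 135, 139, 162 and 114 CPM in Nudt7 livers and at 122, 116, 122 and 111 CPM in GFP livers. Nudt7 replicates 1 to 3 were above all GFP livers and replicate 4 was not, with a log2 fold change of 0.22 (SE 0.13; edgeR adjusted p = 0.670). The second receptor Pex7 was at 0.25 (SE 0.15). The docking genes Pex13 and Pex14 were at −0.03 and 0.09, and the genes of the ubiquitin ligase that marks Pex5, Pex2 and Pex10, at 0.19 and −0.05 (log2 fold changes).

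The 3 genes that place proteins into the peroxisomal membrane all had positive fold changes, between 0.18 and 0.22. Without Nudt7 replicate 3 Pex16 turned to −0.06, Pex3 was at 0.07 and Pex19 at 0.16 (log2 fold changes). Pex19, the carrier of newly made membrane proteins, was at 155, 174, 193 and 147 CPM in Nudt7 livers and at 135, 146, 137 and 157 CPM in GFP livers. GFP replicate 4 lay above Nudt7 replicates 1 and 4, and the log2 fold change was 0.22 (SE 0.13; edgeR adjusted p = 0.667). Its docking partner Pex3 was at 0.22 (SE 0.16) and Pex16 at 0.18 (SE 0.22). Summed over the 3 genes, the level was 278 ± 22.3 TPM over the Nudt7 group, against 266 ± 21.1 TPM over the GFP group (mean ± SD, n = 4 each).

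Division genes had a median log2 fold change of 0.05, with 4 of 5 positive. Pex11a, which encodes a protein that elongates the membrane before fission and is a known target of the nuclear receptor PPAR alpha, was at 326, 388, 448 and 295 CPM in Nudt7 livers and at 244, 270.4, 248 and 360.1 CPM in GFP livers. GFP replicate 4 overlapped the Nudt7 livers, and the log2 fold change was 0.38 (SE 0.17; edgeR adjusted p = 0.6). The related Pex11g was at 0.05 (SE 0.16). Fis1, an adaptor at the fission site, was at 56.4 CPM in Nudt7 replicate 3, 23.6 to 27.9 CPM in the other Nudt7 livers and 23.7 to 26.7 CPM in GFP livers, and its log2 fold change of 0.42 became 0.04 without that library. The adaptor Mff was at −0.06 (SE 0.14) and Dnm1l, the GTPase that closes the constriction, at 0.03 (SE 0.14).

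Other membrane proteins had a median of 0.08 on the log2 scale, which was −0.00029 without Nudt7 replicate 3. Mpv17l (chromosome 16, 13903161 to 13949619, plus strand), a membrane protein of the Mpv17 family linked in mouse to reactive oxygen handling, was at 20.7, 19.9, 23.8 and 20.3 CPM in Nudt7 livers and at 14.4, 17.9, 16.7 and 16.9 CPM in GFP livers. The groups did not overlap in CPM or in TPM, and the log2 fold change was 0.36 (SE 0.12; edgeR adjusted p = 0.451). Pxmp4 was the most abundant of this role, at 183, 256, 223 and 171 CPM in Nudt7 livers and at 210.1, 184, 199 and 226 CPM in GFP livers. The groups lay over each other, with a log2 fold change of 0.02 (SE 0.15; edgeR adjusted p = 0.974). Pxmp2, a channel protein, was at 0.18, Tmem135 at 0.08 and Mpv17 at −0.0014 (log2 fold changes). Mpv17 shared 18.4% of its 31-base words with other genes, the most with the overlapping gene Gm29609, and is therefore uncertain.

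Of the oxidase and glyoxylate genes, 4 of the 5 tested had positive fold changes (median 0.28 on the log2 scale); without Nudt7 replicate 3 all 5 did, with a median of 0.04. Pipox, which oxidises sarcosine and pipecolate, was at 90.3, 71.4, 120.3 and 118 CPM in Nudt7 livers and at 73.5, 80.3, 98.7 and 61.9 CPM in GFP livers. Its groups overlapped, with a log2 fold change of 0.35 (SE 0.19; edgeR adjusted p = 0.664). Uox was at 739.7, 703, 1238 and 686 CPM in Nudt7 livers and at 837, 541, 568 and 835 CPM in GFP livers. Nudt7 replicate 3 stood above all others and the remaining Nudt7 livers lay within the GFP range, so that the log2 fold change of 0.28 (SE 0.23; edgeR adjusted p = 0.737) was 0.04 without that library. Glycolate oxidase (Hao1) was at 0.28 (SE 0.24) and alanine-glyoxylate aminotransferase (Agxt), which acts on its product, at 0.18 (SE 0.18). Paox, a polyamine oxidase gene, was at −0.03 (SE 0.13). It shared 30.3% of its 31-base words with other genes, the most with Gm19680, so its reads may be divided among them.

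The 3 genes of ether lipid synthesis, whose first steps take place in the peroxisome, all had negative fold changes (median −0.09 on the log2 scale). Gnpat, the acyltransferase of the first step, was at 45.8, 45.2, 55.2 and 47.4 CPM in Nudt7 livers and at 49.8, 47.7, 47.4 and 58.6 CPM in GFP livers. Its groups overlapped, with a log2 fold change of −0.07 (SE 0.12; edgeR adjusted p = 0.873). Far1, which makes the fatty alcohol, was at 1.80, 2.74, 1.40 and 2.67 CPM in Nudt7 livers and at 2.56, 2.63, 2.59 and 2.78 CPM in GFP livers. Nudt7 replicates 1 and 3 were low and the others within the GFP range (log2 fold change −0.29, SE 0.24, adjusted p = 0.742 in edgeR). Agps, the alkyl synthase, was at −0.09 (SE 0.18). Of 6 other tested genes listed for ether lipid metabolism, not all of them synthesis enzymes, 4 had positive fold changes, and 0 passed in edgeR or DESeq2. Among these Pla2g6, a phospholipase gene, alone had an unadjusted p under 0.05 in edgeR (log2 fold change 0.32, SE 0.13).

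**Figure D3:**
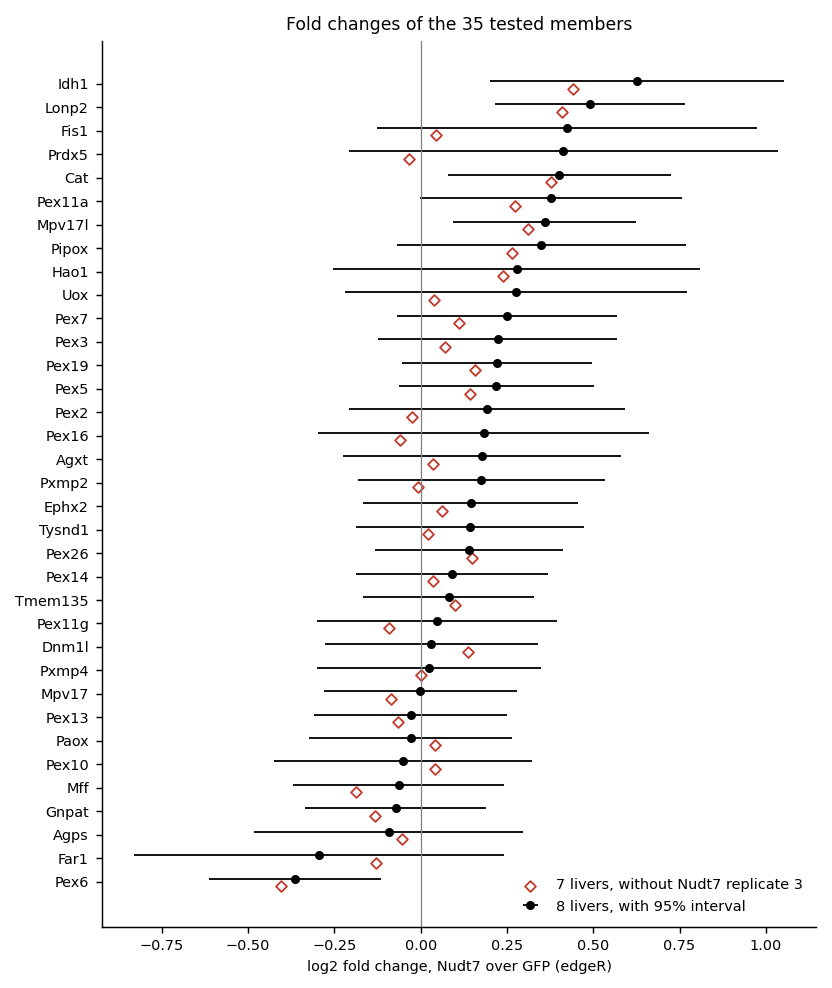
Log2 fold change, Nudt7 over GFP, of the 35 tested members (filled points, with the 95% interval of the edgeR fit on 8 livers) and the same without Nudt7 replicate 3 (open diamonds). The intervals of Idh1, Lonp2, Cat, Mpv17l and Pex6 lie on the same side of 0 throughout, and Fis1, Prdx5 and Uox move close to 0 without that library.

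Much of the general shift in CPM was seen in the library that stood apart. That library also held the most Nudt7 RNA, at 3569 CPM, against 1301 to 1599 CPM in the other Nudt7 livers. The part of the Nudt7 level in its values was not tested. Nudt7 replicate 3 was the highest of the 8 livers in CPM for 22 of 35 members (62.9%), against 28.3% of all genes. In TPM it was the highest for 9 of 35, against 10.6% of all genes. Without it 8 members changed the sign of their log2 fold change. On the log2(TPM + 1) scale with all 8 livers, the members' median was 0.01 and 20 were positive (57.1%), against a median of −0.10 and 31.7% positive for all genes. With each library's trend of counts with transcript length removed, the members' median was 0.12, against 0.00056 for all genes. In that setting 24 members were positive (68.6%), against 50.1% of all genes. With an offset for average transcript length, the members' median was 0.17, against 0.02 for all genes. There 32 members were positive (91.4%), against 52.6% of all genes. Without Nudt7 replicate 3 the same 5 members as before had an unadjusted p under 0.05, with log2 fold changes of 0.41 for Lonp2 (SE 0.09, adjusted p = 0.125 in edgeR), 0.44 for Idh1, 0.38 for Cat, 0.31 for Mpv17l and −0.41 for Pex6 (SE 0.09, adjusted p = 0.139 in edgeR). On the TPM scale, or without Nudt7 replicate 4 or GFP replicate 4, the others remained under 0.05 and Cat did not. Pex11a, at an unadjusted p of 0.0514 in the main edgeR fit, was under 0.05 in DESeq2 and in limma-voom with or without sample weights. It stayed above 0.05 on the TPM scale and without some single libraries, Nudt7 replicate 3 among them.

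**Figure D4:**
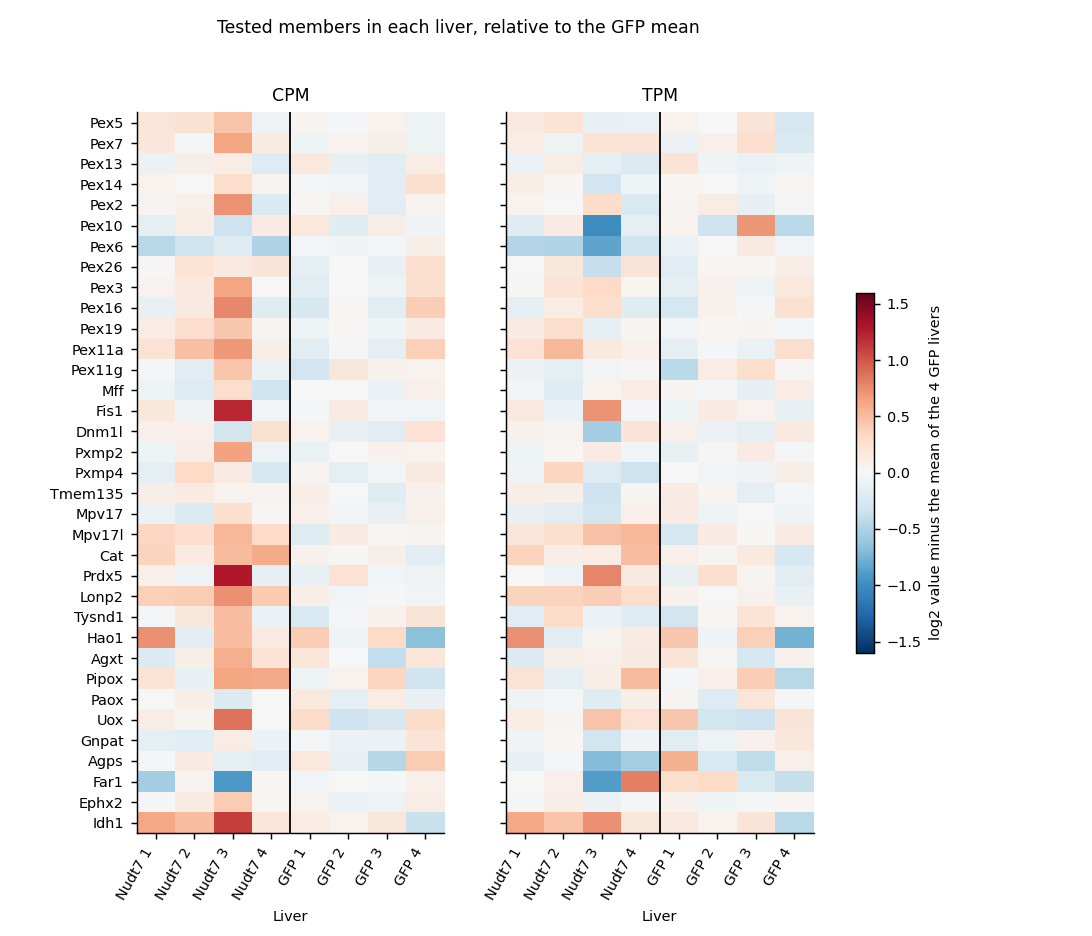
Log2 value of each tested member in each liver minus the mean of the 4 GFP livers, as CPM (left) and TPM (right), rows grouped by role, Nudt7 livers left of the line and GFP livers right of it. Nudt7 replicate 3 is the darkest red column in CPM and not in TPM, while Lonp2 is above the GFP mean and Pex6 below it in all 4 Nudt7 livers on both scales.

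Transcripts of the members were also tested one by one. Of 201 listed, 112 had enough reads, 0 passed in edgeR over 31071 transcripts (0.00644% of all did), and 7 had an unadjusted p under 0.05, 6 with a higher value (2.56% of all transcripts) and 1 with a lower value (1.95% of all), against 4.51% of all transcripts in either direction. The groups did not overlap for 6, against 3.96% of all transcripts. Lonp2-201, the full-length coding transcript, had the smallest p among these (log2 fold change 0.53, SE 0.12; edgeR adjusted p = 0.599) and made up 76.7% ± 11.7 of the gene's TPM over the Nudt7 group, against 74.9% ± 4.16 over the GFP group (mean ± SD, n = 4 each). Cat is almost a single-transcript gene, with Cat-201 at 99.9% in both groups. Pxmp4 was divided about evenly in TPM, Pxmp4-201 holding 50.3% ± 2.87 over the Nudt7 group, against 53.2% ± 3.39 over the GFP group (mean ± SD, n = 4 each). Most of its reads were in Pxmp4-201, at 157 to 228 CPM over all livers, against 16.1 to 27.6 CPM for Pxmp4-202.

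Pex5 has a short and a long coding form, the long one with 111 more bases and known to carry Pex7 and its cargo as well. The short form of 1806 coding bases took 70.6%, 68.2%, 72.4% and 71.1% of Pex5 TPM in Nudt7 livers and 60.2%, 67.9%, 61.2% and 67.9% in GFP livers. Every Nudt7 liver was above every GFP liver, the closest by less than 1 percentage point. How often transcript shares of other genes lie apart in this way was not counted. The long form of 1917 coding bases took 16% ± 2.06 over the Nudt7 group, against 19.2% ± 2.83 over the GFP group (mean ± SD, n = 4 each), and these ranges overlap. The rest of Pex5 TPM lay in its other transcripts. Shares of transcripts are estimates that divide reads between overlapping forms, and no test was made on them.

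Promoters were read for 32 of the 37 members from RefSeq on GRCm38.p6. The aim was to show which known motifs stand near members that were higher or lower. Each ran from 250 bases before to 50 bases after a listed start. Where a gene had several, the one nearest the start of its coding transcript with the highest mean TPM was used. The one used for Idh1 lies inside the annotated gene. Promoters of Pex2, Pex19, Pxmp2, Ephx2 and Mpv17l were not read, so Mpv17l is missing here though its groups did not overlap in CPM. Both strands were searched for GGGCGG (the GC box), for CCAAT (a box named by its letters), for TATAAA (the TATA box), for AGGTCA (the hexamer read by many nuclear receptors) and for its direct repeat AGGTCANAGGTCA, which is bound by PPAR alpha. The repeat contains the hexamer, and no other motif contains another. The promoters of Lonp2 (chr8:86623793-86624092, plus strand), Cat (chr2:103485104-103485403, minus strand), Idh1 (chr1:65179093-65179392, minus strand) and Pex6 (chr17:46711226-46711525, plus strand) follow 5′ to 3′ in the direction of the gene, with matches in capitals.
Lonp2: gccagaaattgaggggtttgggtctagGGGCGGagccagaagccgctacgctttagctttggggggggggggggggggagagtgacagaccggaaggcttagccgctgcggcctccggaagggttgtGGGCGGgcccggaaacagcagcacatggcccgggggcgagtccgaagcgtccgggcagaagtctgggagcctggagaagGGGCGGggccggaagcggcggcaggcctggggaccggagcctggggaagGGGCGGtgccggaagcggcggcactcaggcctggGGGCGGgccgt
Cat: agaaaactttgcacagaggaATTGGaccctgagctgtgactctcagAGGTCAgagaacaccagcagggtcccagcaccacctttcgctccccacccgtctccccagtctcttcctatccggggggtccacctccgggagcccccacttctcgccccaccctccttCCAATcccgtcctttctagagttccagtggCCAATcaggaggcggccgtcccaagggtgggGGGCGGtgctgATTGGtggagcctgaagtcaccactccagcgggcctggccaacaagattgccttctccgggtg
Idh1: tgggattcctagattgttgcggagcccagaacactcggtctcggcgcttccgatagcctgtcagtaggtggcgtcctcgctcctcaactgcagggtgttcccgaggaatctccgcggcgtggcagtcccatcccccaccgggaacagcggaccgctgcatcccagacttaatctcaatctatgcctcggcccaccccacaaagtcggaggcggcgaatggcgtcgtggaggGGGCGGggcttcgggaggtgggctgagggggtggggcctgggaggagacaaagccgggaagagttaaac
Pex6: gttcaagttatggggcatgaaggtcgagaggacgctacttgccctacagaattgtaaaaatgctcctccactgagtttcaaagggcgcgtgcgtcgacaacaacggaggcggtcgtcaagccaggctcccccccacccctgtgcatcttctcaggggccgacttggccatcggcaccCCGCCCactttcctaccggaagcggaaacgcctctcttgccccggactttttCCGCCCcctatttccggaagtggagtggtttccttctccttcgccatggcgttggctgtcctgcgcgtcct
Lonp2 held 5 GC boxes, Cat 4 CCAAT boxes with 1 GC box and 1 receptor hexamer, Idh1 1 GC box and Pex6 2 GC boxes. A GC box was in 23 of the 32 members (71.9%), against 35.7% of 32851 promoters, and CCAAT in 9 (28.1%), against 37.4%. The 32851 promoters were not limited to genes expressed in liver or matched for GC content. Their median GC content was 52.7%, against 72% for Lonp2, 63.7% for Idh1, 62% for Cat and 59.3% for Pex6. The promoter used for Tmem135, with 8 GC boxes, lay 65435 bases from the start of its coding transcript with the highest mean TPM. For Mff, with 1 GC box, the distance was 4311 bases. The hexamer was in Cat and Pex11g only (6.25%), against 16.3% of promoters, and the direct repeat in 0 members, against 0.0396% of promoters. TATAAA was in Pex14 and Pex26 (6.25%), against 13.6%. A match is a description of the letters and shows no binding.

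The members were set beside other genes of the organelle and of the fasting response. Of 14 tested peroxins and organelle tethers outside the list, 8 had positive fold changes (median 0.05 on the log2 scale), 2 had an unadjusted p under 0.05 and 0 passed in edgeR or DESeq2. Among them Acbd4, which encodes an acyl-CoA binding tether to the endoplasmic reticulum, was at 27.4 ± 3.57 CPM over the Nudt7 group, against 20 ± 1.33 CPM over the GFP group (mean ± SD, n = 4 each), with a log2 fold change of 0.45 (SE 0.13; edgeR adjusted p = 0.304). Slc25a17, the peroxisomal carrier of coenzyme A and related cofactors, was at 28.6 ± 5.17 CPM over the Nudt7 group, against 22.6 ± 1.63 CPM over the GFP group (mean ± SD, n = 4 each), a log2 fold change of 0.34 (SE 0.14; edgeR adjusted p = 0.561). Of 25 tested genes of peroxisomal fatty acid oxidation, 20 were positive with a median of 0.23, 9 had an unadjusted p under 0.05 and 0 passed in edgeR, while DESeq2 called 3. Of 25 tested PPAR alpha targets, 21 were positive with a median of 0.17, 1 passed in edgeR and 2 in DESeq2. Without Nudt7 replicate 3 the medians were 0.04 for the members, −0.02 for the other peroxins and tethers, 0.10 for fatty acid oxidation and 0.13 for PPAR alpha targets, and no test of a difference between the lists was made.

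**Figure D5:**
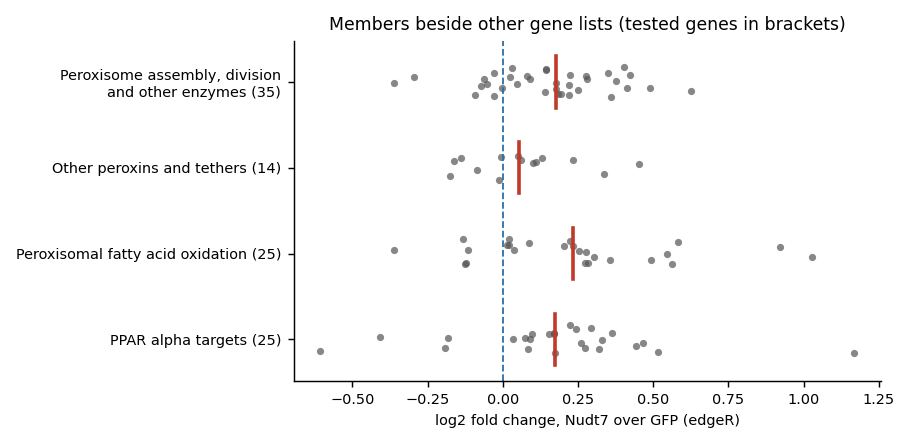
Log2 fold change, Nudt7 over GFP, of single genes (grey points) on the member list and 3 other lists, with the median of each list (red line). The dashed line marks the median of all genes tested (−0.00089) and the number of tested genes is in brackets. The medians are 0.18, 0.05, 0.23 and 0.17 from top to bottom.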

How the data were processed

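Messenger RNA from 8 livers was made into libraries with a stranded mRNA kit from KAPA Biosystems, per the labels' protocols, from 500 ng of RNA with 9 cycles of PCR. Per the submitters' processing notes, the tools were Salmon, FastQC and DESeq2, on GRCm38; which index was used, in which version, and whether counting used strand is not given in the sources used here. Each deposited table lists transcripts with an estimated count from Salmon (unnormalized), a TPM and an effective length, per the file headers.

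Of 109282 transcripts, 107987 (98.8%) were named from the GENCODE M21 annotation of GRCm38; the rest, with 0.552% to 1.06% of a library's reads, were left out. Estimated counts and TPM were summed per gene (34547 genes), and the counts rounded to whole numbers. The main test was edgeR 4.0.16 (R 4.3.3), quasi-likelihood with robust estimation, TMM scaling and filterByExpr by group, which left 13678 genes, two-sided, Benjamini-Hochberg adjusted over all of them, with a threshold of 0.05. The groups were compared with no covariate, since the labels give no batch. Alternatives used DESeq2 1.42.0, limma 3.58.1 (voom, voom with sample weights, log2(TPM + 1)), RLE scaling, no filter, 2 length offsets and leaving out each library. The procedure was tested on simulated counts with no library set apart and no trend with transcript length. The check required recovery only of changes larger than those of the members, so it does not cover changes of their size. A listed 0 was given a floor of 3 reads per library; it covers counting error alone, as PCR copies carry no molecular identifiers and reads are not independent. Reads of genes that share sequence or overlap (Pex13 with Pus10, Pex3 with Adat2, Pex16 with Large2, Prdx5 with Trmt112, Paox with Echs1, Gnpat with 2810004N23Rik, all on opposite strands, and Mpv17 with Gm29609) may be divided between them.

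The members and gene lists were chosen with earlier results of these data known. Full values are given for members past the threshold in edgeR, DESeq2 or voom, with groups that do not overlap in CPM or an unadjusted p under 0.05, and for the member of each role with the smallest p and the highest TPM; Prdx5 and Fis1 were added after their values were seen. Values of some genes on the marker lists are not reported here. Of the other gene lists, counts and medians are given and at most 3 genes each were named, those with the smallest p. Hao2 and Dao did not pass the filter on low counts.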

Additional observations from a re-analysis of the deposited data

Results flagged for a closer look

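In 70 groups of 4 livers (35 tested members in each group), 7 held a library set apart from the other 3 by more than Dixon's 95% critical share of the group's range in CPM; chance flags about 1 in 20 groups. Nudt7 replicate 3 was the high library in 5 of them. It was at 422 CPM for Lonp2 (nearest Nudt7 liver 339), 83.2 CPM for Pex14 (nearest 71.1), 56.4 CPM for Fis1 (nearest 27.9), 299.9 CPM for Prdx5 (nearest 131) and 1238 CPM for Uox (nearest 739.7). Among GFP livers, replicate 1 was high for Lonp2 at 274 CPM (nearest 249.9) and replicate 2 for Fis1 at 26.7 CPM (nearest 23.9).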

How the results depend on the processing

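Of the 14 members given with full values, 10 kept their direction under all 16 alternatives; the log2 fold change ran from 0.34 to 0.54 for Lonp2 (past the threshold in DESeq2 only, adjusted p = 0.00824, with adjusted p up to 0.705 over the alternatives), from 0.43 to 0.75 for Idh1, from 0.27 to 0.48 for Cat, from 0.30 to 0.51 for Mpv17l, from 0.25 to 0.54 for Pex11a and from −0.52 to −0.31 for Pex6. Pxmp4 turned to −0.060 in limma on log2(TPM + 1), to −0.023 with the length trend removed and ran from −0.090 to 0.11 when single libraries were left out. Far1 turned to 0.021 in TPM and to 0.20 with the average transcript length offset, Gnpat to 0.028 with that offset (−0.13 to 0.021 with single libraries left out) and Ephx2 to −0.013 in TPM; the cause was not tested. Of the 21 other tested members 15 changed sign in at least 1 alternative. The members' median ran from 0.04 to 0.22 with single libraries left out, lowest without Nudt7 replicate 3. DESeq2 called 1 member higher. Leaving out Nudt7 replicate 4 or GFP replicate 4 took Cat above an unadjusted p of 0.05 (0.0553 at most). Over all genes edgeR called 6 higher and 10 lower; DESeq2 called 87 and 66, voom with sample weights 58 and 42, limma on TPM 3 and 5, voom 5 lower, no filter 15 higher, the length trend removed 22 higher, the average length offset 6 lower, and leaving out single libraries 1 to 8 higher and 1 to 12 lower, each library but GFP replicate 3 moving at least 1 of these counts by over 1.5 times. Member transcripts called stayed at 0 with RLE scaling, no filter or single libraries left out. No paired analysis was possible because the replicate numbers follow accession order and pair no animals. Depth limits Hao2, Dao and Far1 (17 to 64 reads).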
